A study of Mus musculus with 10 samples.

Results

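The genes of de novo pyrimidine synthesis examined were 10 enzymes: Cad, Dhodh, Umps, Ctps, Ctps2, Cmpk1, Nme1, Nme2, Tyms and Dut. They were taken by name, for the enzymes they encode, and made up 10 of the 37417 genes in the count table. Bulk RNA-seq had been performed on 10 subcutaneous (s.c.) tumors of Panc02, a cell line from mouse pancreatic cancer, grown in C57BL/6J mice aged 12 weeks and collected at day 16, with 5 sgNT and 5 sgCda tumors. Before injection, the cancer cells of both groups had received a doxycycline-inducible Cas9 and a guide RNA by lentiviral transduction and had been selected with puromycin. The guide was nontargeting in sgNT cells and directed against Cda, the gene for cytidine deaminase, in sgCda cells. Cda deaminates cytidine to uridine in the salvage route, so the comparison asks whether transcripts of the de novo route differed when a salvage enzyme was targeted in the cancer cells. Host cells inside these tumors carried no guide, and in a bulk sample fewer cells of a type and less RNA per cell cannot be told apart.

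Cells build pyrimidine nucleotides either from small precursors (de novo synthesis) or from existing nucleosides (salvage). In the de novo route, Cad carries out the opening steps from glutamine, bicarbonate and aspartate, Dhodh oxidizes dihydroorotate at the inner mitochondrial membrane, and Umps converts orotate to UMP. Cmpk1 and the nucleoside diphosphate kinases Nme1 and Nme2 then add phosphates, the CTP synthases Ctps and Ctps2 turn UTP into CTP, Dut hydrolyses dUTP to dUMP, and Tyms methylates dUMP to the thymidine nucleotide dTMP.

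Libraries held 28051907 to 39484964 counts assigned to genes, and a count of 3 corresponded to 0.0760 to 0.107 CPM, the unit of counts scaled to library size. sgCda replicate 4 stood apart, with the lowest total, the highest share of unique reads outside genes (18.4%, against 10.3% to 14.9% in the other 9) and the highest mitochondrial share (5.82%, against 3.47% to 3.81%). sgCda replicates 3 and 4 were opposite ends of the first principal component, which held 40.7% of the variance. Summed epithelial markers ran from 590.5 to 923 CPM in sgNT and from 569 to 1016 CPM in sgCda tumors. Krt8 (means of 476 CPM in sgNT and 452 CPM in sgCda) and Krt18 (230 and 228 CPM) made up most of this sum. Epcam (1.03 and 1.77 CPM) and Krt7 (0.472 and 0.893 CPM) were low, and Cldn4 did not pass the filter on low counts. Of the 6 tested, 3 had positive and 3 negative estimates, and Epcam had an edgeR unadjusted p of 0.0305 (adjusted p = 0.9996). Of 5 acinar pancreas markers only Cela1 passed the filter, while Cel and Ptf1a had 0 counts in every tumor. Transcript of Cda was 12.1 ± 1.76 CPM over the sgNT and 9.77 ± 2.34 CPM over the sgCda group (SD, n = 5 per group), and the groups overlapped (edgeR quasi-likelihood test, unadjusted p = 0.0963, adjusted p = 0.9996). For Cda, 3 sgCda tumors lay below the sgNT range and 0 above it. The authors also found Cda transcript in endothelial cells and fibroblasts of such tumors, and checked its depletion in the cell lines by RT-qPCR and western blot. Their RT-qPCR primers for Cda were placed on the region that the guides target, whereas the counts here cover the whole gene. The level in whole tumors is therefore not a measure of targeting in the cancer cells alone.

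The sgCda guide is shown because it defines the treated group. It matches the sense strand of coding exon 2 of Cda at chr4:138351219-138351238 (GRCm38), with all 20 bases in coding sequence, and the 3 bases that follow in the transcript are GGG.
sgCda guide: tccagaaggccatctccgaa

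No difference between sgCda and sgNT tumors passed the test in any of the 10 genes. All 10 passed the filter on low counts, and with edgeR's quasi-likelihood test 0 of 10 had an adjusted p under 0.05, as did 0 of the 15299 genes tested (0%). At an unadjusted p under 0.05 there were again 0 of 10, where the share among all tested genes was 2.50%, and the DESeq2 Wald test and limma-voom also gave 0 of 10 at both thresholds. The groups overlapped in all 10 genes, whereas they did not overlap in 0.601% of all genes tested. The estimates were negative for 7 genes and positive for 3, with a median log2 fold change (sgCda minus sgNT) of −0.06 beside 0.0078 for all genes. The median size regardless of sign was 0.07 for these genes and 0.08 for all genes. In 8 of 10 the estimate was smaller than its own standard error (SE). With Nme2 left aside for its low counts, the 95% confidence intervals (CI) of the other 9 reached from a decrease of −27.0% to an increase of 32.2%. The narrowest of them, that of Ctps2, ran from −14.7% to 2.44%.

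**Figure D1:**
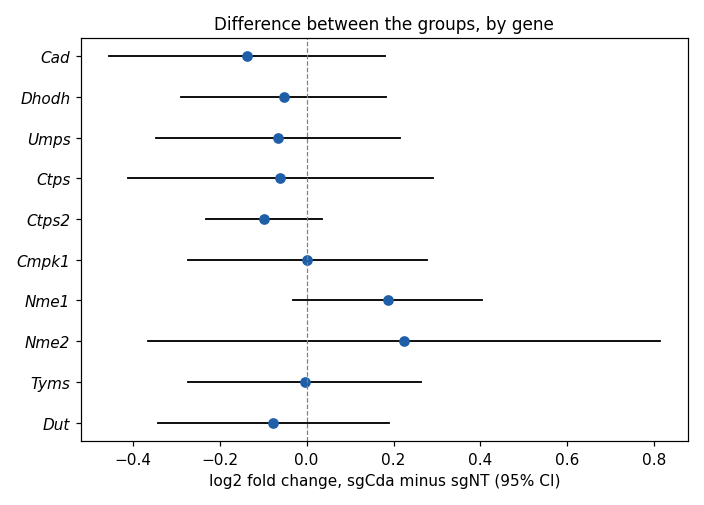
Log2 fold change of each gene, sgCda minus sgNT (x axis), with its 95% CI from edgeR's quasi-likelihood fit as a line and 5 tumors per group. All 10 intervals cross 0, from the narrowest, Ctps2 (−0.23 to 0.03), to the widest, Nme2 (−0.37 to 0.81).

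The enzymes up to UMP are described first. Cad, the trifunctional enzyme whose carbamoyl phosphate synthetase step is rate limiting, was present at 78.2, 94.6, 73.7, 95.7 and 78.9 CPM in sgNT replicates 1 to 5. In sgCda replicates 1 to 5 it was present at 76.1, 66.7, 107.1, 61.1 and 71.7 CPM. The highest and the lowest of the 10 tumors were thus both sgCda, and 3 sgCda tumors lay below the range of the sgNT tumors. Means were 84.2 ± 10.2 and 76.5 ± 18.0 CPM (SD, n = 5 per group), with a log2 fold change of −0.14 (SE 0.14, 95% CI −0.46 to 0.18, edgeR unadjusted p = 0.363, adjusted p = 0.9996). Single tumors moved this estimate in both directions: it was −0.29 without sgCda replicate 3 (edgeR unadjusted p = 0.0142) and −0.065 without sgCda replicate 4 (edgeR unadjusted p = 0.666), and the adjusted threshold was passed in neither case.

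Dhodh, the mitochondrial step of the route, had the lowest CPM after Nme2. It was measured at 12.4, 12.9, 11.6, 13.6 and 13.5 CPM in sgNT replicates 1 to 5 and at 12.4, 12.6, 14.7, 9.88 and 12.0 CPM in sgCda replicates 1 to 5. The sgCda tumors enclosed the sgNT range, with replicate 3 above it and replicate 4 below it. The estimate on the log2 scale was −0.05 (SE 0.11, 95% CI −0.29 to 0.18, edgeR unadjusted p = 0.634).

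Umps carries both activities that lead from orotate to UMP. It was measured at 52.7, 60.2, 59.2, 73.6 and 61.9 CPM in sgNT replicates 1 to 5 and at 51.5, 53.3, 77.5, 50.9 and 60.7 CPM in sgCda replicates 1 to 5. A pair of tumors, sgNT replicate 4 and sgCda replicate 3, lay above all others. Of the sgCda tumors, 2 lay below the sgNT range of Umps and 1 above it. The estimate on the log2 scale was −0.07 (SE 0.13, 95% CI −0.35 to 0.21, edgeR unadjusted p = 0.617). Its exons share 213 bases with the antisense gene Gm15829 on the opposite strand, and whether the counting used strand is not given in the sources used here, so reads from this stretch are uncertain.

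The CTP synthases differed in how much they varied. Ctps was measured at 44.6, 43.2, 51.8, 64.8 and 46.6 CPM in sgNT replicates 1 to 5 and at 45.0, 41.6, 68.1, 39.2 and 46.9 CPM in sgCda replicates 1 to 5, again with sgNT replicate 4 and sgCda replicate 3 on top. Its coefficient of variation (CV) over the 10 tumors was 19.8%. Ctps2, on chromosome X, was measured at 64.8, 69.6, 67.3, 65.7 and 66.2 CPM in sgNT and at 56.9, 66.2, 63.5, 59.0 and 66.3 CPM in sgCda replicates 1 to 5, with a CV of 5.98%, the lowest of the 10 genes. All 5 sgCda tumors lay below the sgNT mean of Ctps2, and 3 lay below the sgNT range.

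Log2 fold changes were −0.06 for Ctps (SE 0.16, 95% CI −0.41 to 0.29, edgeR unadjusted p = 0.713) and −0.10 for Ctps2 (SE 0.060, 95% CI −0.23 to 0.03, edgeR unadjusted p = 0.133). Per kilobase (kb) of exon, the ratio of Ctps to Ctps2 ran from 0.882 in sgNT replicate 2 to 1.53 in sgCda replicate 3, and in sgNT replicate 4 it was 1.40. Of the Ctps transcript windows of 50 bases, the length of a read, 1.00% recur in the processed pseudogene Gm16465, whereas no window of Ctps2 recurs in another gene.

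The nucleotide kinases follow. Cmpk1, which phosphorylates UMP and CMP, was measured at 113.8, 102.0, 130.5, 135.5 and 117.9 CPM in sgNT replicates 1 to 5 and at 118.4, 130.0, 145.0, 87.4 and 119.5 CPM in sgCda replicates 1 to 5. The lowest value belonged to sgCda replicate 4 and the highest to sgCda replicate 3, and the means were nearly equal, at 119.9 ± 13.4 and 120.1 ± 21.1 CPM (SD, n = 5 per group). The estimate on the log2 scale was 0.0018 (SE 0.13, 95% CI −0.27 to 0.28, edgeR unadjusted p = 0.989). Windows shared with the processed pseudogene Gm5867 made up 2.60% of its transcript windows.

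Nme1 had the smallest p of the 10 genes and went in the other direction from most of them. It was measured at 47.7, 47.0, 56.4, 61.8 and 52.0 CPM in sgNT replicates 1 to 5 and at 54.7, 53.1, 68.3, 65.7 and 59.6 CPM in sgCda replicates 1 to 5. All 5 sgCda tumors lay above the sgNT mean, but only replicates 3 and 4 lay above the highest sgNT tumor. Means were 53.0 ± 6.20 and 60.3 ± 6.67 CPM (SD, n = 5 per group), with a log2 fold change of 0.19 (SE 0.099, 95% CI −0.03 to 0.40), which was not beyond the spread of the tumors (edgeR unadjusted p = 0.0847, adjusted p = 0.9996). Without sgCda replicate 2 or without sgNT replicate 4 the unadjusted p was 0.0442 or 0.0302, and without both sgCda replicates 3 and 4 the estimate was 0.07 with an unadjusted p of 0.458.

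Nme2 was counted only 14 to 49 times per tumor. Its levels were 0.641, 0.442, 0.899, 0.691 and 1.23 CPM in sgNT replicates 1 to 5 and 0.904, 0.870, 0.923, 0.779 and 1.11 CPM in sgCda replicates 1 to 5. Every sgCda value fell inside the sgNT range, and the estimate was 0.22 with a wide interval (SE 0.27, 95% CI −0.37 to 0.81, edgeR unadjusted p = 0.421).

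The low counts of Nme2 stand beside a feature of the annotation. Nme1 (chromosome 11, 93956979 to 93968521) and Nme2 (chromosome 11, 93949814 to 93956259) are neighbors on the minus strand of GRCm38, and another protein-coding model, Gm20390, joins exons of both. All 456 coding bases of Nme2 lie also in exons of Gm20390, as do 48.9% of all its exonic bases, and in Nme1 the corresponding shares are 74.8% of coding and 12.5% of exonic bases. Gm20390 lies entirely inside exons of its neighbors and was counted 0 times in every tumor. Counters such as HTSeq leave out a read that overlaps more than 1 gene, but the annotation release used by the authors is not given in the sources used here and the part of this overlap in the Nme2 count was not tested. Nme2 also shares windows of 50 bases with the processed pseudogenes Gm7730, Gm5425 and Gm5566 (14.5%, 10.7% and 7.31% of its transcript windows). The values for Nme2 are therefore uncertain as a transcript level, and so to a lesser extent are those for Nme1.

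Sequences of the stretch in which the coding sequences of Nme1 and Nme2 resemble each other most (coding bases 40 to 99) are shown to make this overlap visible, with capitals at the 5 positions at which they differ. Both stretches occur unaltered in the coding sequence of Gm20390. Over the full 456 coding bases, Nme1 and Nme2 are 80.3% identical and the longest identical run is 29 bases, shorter than a read of 50 bases, so reads tell Nme1 from Nme2 but do not tell either from Gm20390 here.
Nme1: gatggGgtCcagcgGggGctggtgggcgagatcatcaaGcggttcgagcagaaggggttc
Nme2: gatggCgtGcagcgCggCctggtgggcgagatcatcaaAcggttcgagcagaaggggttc

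Dut and Tyms lead from dUTP to the thymidine nucleotide. Dut, which keeps uracil out of DNA, was measured at 179.4, 198.1, 236.7, 253.0 and 201.8 CPM in sgNT replicates 1 to 5 and at 208.6, 186.8, 213.7, 162.0 and 243.1 CPM in sgCda replicates 1 to 5. sgNT replicate 4 was highest and sgCda replicate 4 lowest, and the other 8 tumors were intermixed. The estimate on the log2 scale was −0.08 (SE 0.12, 95% CI −0.34 to 0.19, edgeR unadjusted p = 0.543). Tyms, thymidylate synthase and the target of 5-fluorouracil, was measured at 51.4, 56.7, 62.0, 67.5 and 65.6 CPM in sgNT replicates 1 to 5 and at 56.7, 55.3, 72.2, 47.8 and 70.3 CPM in sgCda replicates 1 to 5.

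For Tyms, sgCda replicates 3 and 5 lay above the sgNT range and sgCda replicate 4 below it, and the estimate was −0.0047 (SE 0.12, 95% CI −0.27 to 0.26, edgeR unadjusted p = 0.970). Of its transcript windows of 50 bases, 5.72% occur in another gene, including 2.44% in the pseudogene Tyms-ps.

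**Figure D2:**
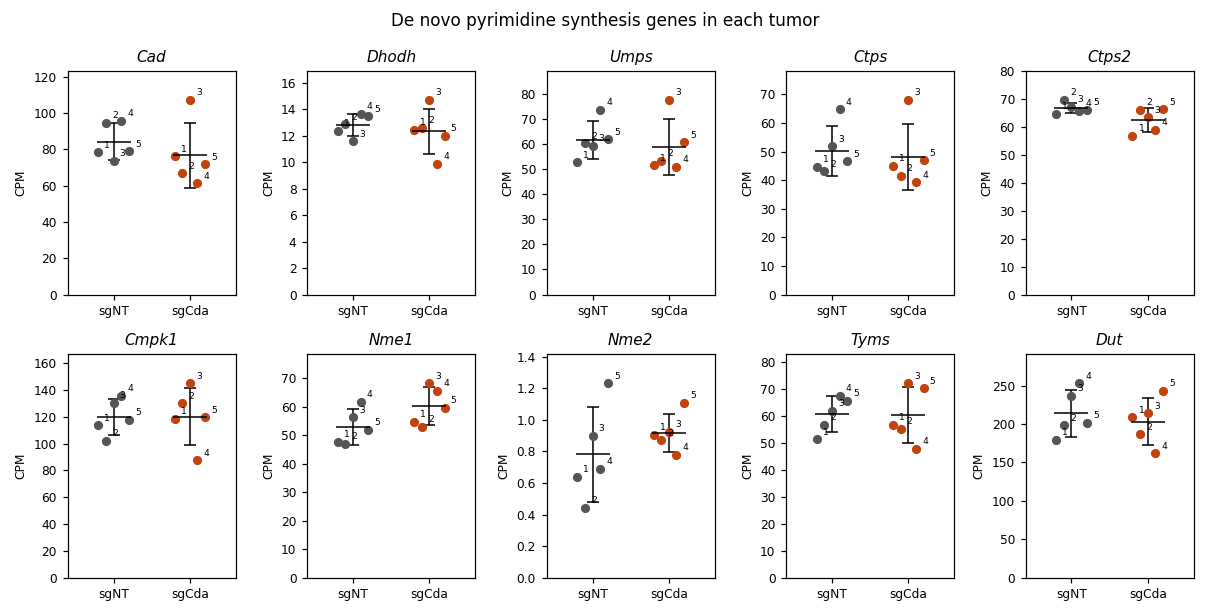
CPM of each gene (y axis, from 0) in the 5 sgNT and 5 sgCda tumors, with the replicate number beside each point, the mean as a horizontal bar and the SD as error bars. sgCda replicate 3 is the highest tumor in 7 of 10 panels and sgCda replicate 4 the lowest in 7 of 10, and the groups overlap in every panel.

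The same tumors recurred at the ends of the distributions. sgCda replicate 3 was the highest of the 10 tumors for 7 genes (Cad, Dhodh, Umps, Ctps, Cmpk1, Nme1 and Tyms), and sgCda replicate 4 was the lowest for 7 (Cad, Dhodh, Umps, Ctps, Cmpk1, Tyms and Dut). Of the other 3, Nme1 had sgCda replicate 4 as its second-highest tumor and its lowest value in sgNT replicate 2, Ctps2 was lowest in sgCda replicate 1 and Nme2 in sgNT replicate 2. sgCda replicate 4 was also the library with the highest mitochondrial share, and sgCda replicate 3 had the highest summed level of 6 skeletal muscle markers, 1835 CPM, against 1.39 to 447 CPM in sgNT and 0.981 to 457 CPM in the other sgCda tumors. The part of these features in the member levels was not tested. The median SD of log2 CPM between tumors was 0.206 for these genes, from 0.089 for Ctps2 to 0.388 for Nme2. For all genes it was 0.203, without matching for expression level.

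Levels were next compared between genes, as CPM per kb of exon, since longer transcripts give more reads. Dut was highest, at 86.4 ± 12.1 CPM per kb, followed by Cmpk1 at 35.1 ± 4.88 (SD, n = 10). The range of Dut over tumors did not touch that of Cmpk1, and the range of Cmpk1 did not touch that of Umps. Umps, Nme1, Ctps and Ctps2 followed at 17.3 ± 2.62, 16.9 ± 2.15, 14.8 ± 2.93 and 13.7 ± 0.818 CPM per kb, and neighbors in this series overlapped. Tyms and Cad were lower, at 9.94 ± 1.35 and 9.82 ± 1.75 CPM per kb, and overlapped each other but Tyms did not overlap Ctps2. Dhodh stood at 1.98 ± 0.205 CPM per kb, without overlap with Cad, and Nme2 was last at 0.725 ± 0.194 CPM per kb. The length used for Nme2 was all 1171 exonic bases, of which 598 lie outside Gm20390, so its level and place are uncertain.

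This order depended on the transcript length. With the length of the main coding transcript in place of all exonic bases, 6 of the 10 genes kept their place. Dut, Cmpk1, Ctps, Cad, Dhodh and Nme2 kept theirs, whereas Ctps2 and Tyms moved up to places 3 and 4 and Umps moved down to place 7. Tyms has 6089 exonic bases in all and 3163 in its coding transcript.

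**Figure D3:**
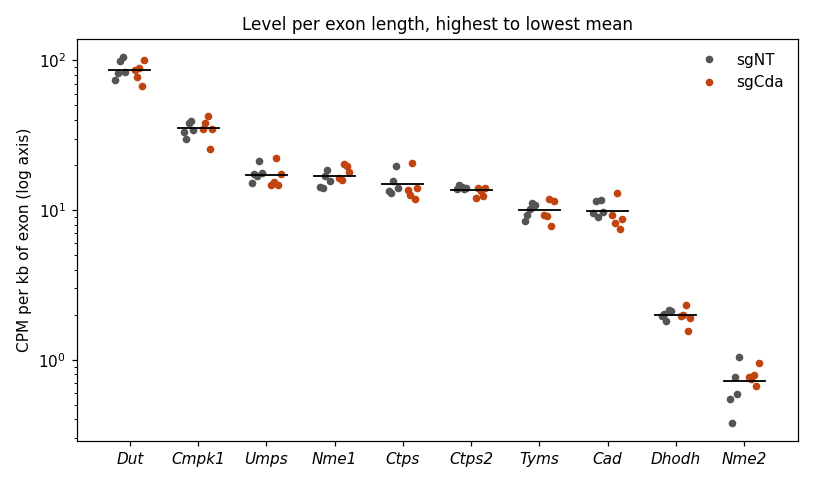
Level of each gene as CPM per kb of exon (y axis, log scale) in the 10 tumors, sgNT in grey and sgCda in orange, with the mean over all tumors as a bar and genes ordered by that mean. Dut and Cmpk1 are separated from the rest, and Dhodh and Nme2 lie below the other genes. The level of Nme2 is uncertain for its overlap with Gm20390.

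Because the route supplies replicating cells, the log2 CPM of each gene was set against a proliferation level. For that level the mean log2 CPM was taken of 15 genes of DNA replication and mitosis such as Mki67, Top2a and Mcm2. This level was 7.22 ± 0.157 over the sgNT and 7.14 ± 0.268 over the sgCda group (SD, n = 5 per group), a difference within the spread (two-sided exact permutation p = 0.579). Over the 10 tumors, 6 of the 10 genes were related to it at an adjusted p under 0.05 (permutation test, adjusted over 10 relations): Umps, Ctps, Tyms, Cad, Dut and Dhodh. Against the same level, the median r of all tested genes was −0.04, and 10.2% of them had an r at least as high as Dhodh, the weakest of the 6. All tested genes here include the 15 genes of the level and the members themselves. Depth and tissue composition are shared by all genes of a tumor, so these r values are not independent of each other.

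Umps followed the level most closely, with r = 0.97 (permutation p = 0.0001, adjusted 0.001) and rho = 0.88 (adjusted permutation p = 0.0079), and 0.163% of all tested genes had an r as high. Ctps followed with r = 0.91 (adjusted permutation p = 0.0023) and rho = 0.82 (adjusted 0.0199). Tyms reached r = 0.85 (adjusted permutation p = 0.00563) and rho = 0.88 (adjusted 0.0079), and Cad r = 0.84 (adjusted 0.00695) and rho = 0.76 (adjusted 0.0307). Dut and Dhodh were weaker, at r = 0.71 (adjusted permutation p = 0.0418) and r = 0.68 (adjusted 0.0454), and for Dhodh the rank correlation did not pass (rho = 0.60, adjusted permutation p = 0.122).

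For the other 4 genes the relation did not pass, at r = 0.58 for Cmpk1, 0.42 for Nme1, 0.32 for Ctps2 and 0.05 for Nme2 (adjusted permutation p = 0.106, 0.276, 0.419 and 0.895). The CTP synthases thus had r values of 0.91 and 0.32, a difference that was not itself tested. Taken as deviations from the group means, r was 0.97 for Umps, 0.91 for Ctps, 0.86 for Tyms, 0.84 for Cad, 0.70 for Dut, 0.67 for Dhodh, 0.65 for Nme1, 0.59 for Cmpk1, 0.25 for Ctps2 and 0.14 for Nme2. In this form 5 genes passed, and 4 passed when the level was the median of the proliferation genes.

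Leaving out the 2 tumors farthest from the median proliferation level, sgCda replicates 3 and 2, r was 0.98 for Umps, 0.85 for Ctps, 0.84 for Tyms, 0.84 for Dut, 0.71 for Cad and 0.68 for Dhodh, and 4 genes passed. The tumors with the highest level, however, were sgNT replicate 4 and sgCda replicate 3, and without this pair, an alternative chosen after seeing the data, r was 0.90 for Umps, 0.81 for Tyms, 0.77 for Dut, 0.70 for Ctps, 0.60 for Cad and 0.38 for Dhodh, and 0 of 10 passed in the remaining 8 tumors. The count of related genes thus changed with the tumors kept. Fewer tumors also make the test weaker, and the part of this in the lower count was not tested.

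**Figure D4:**
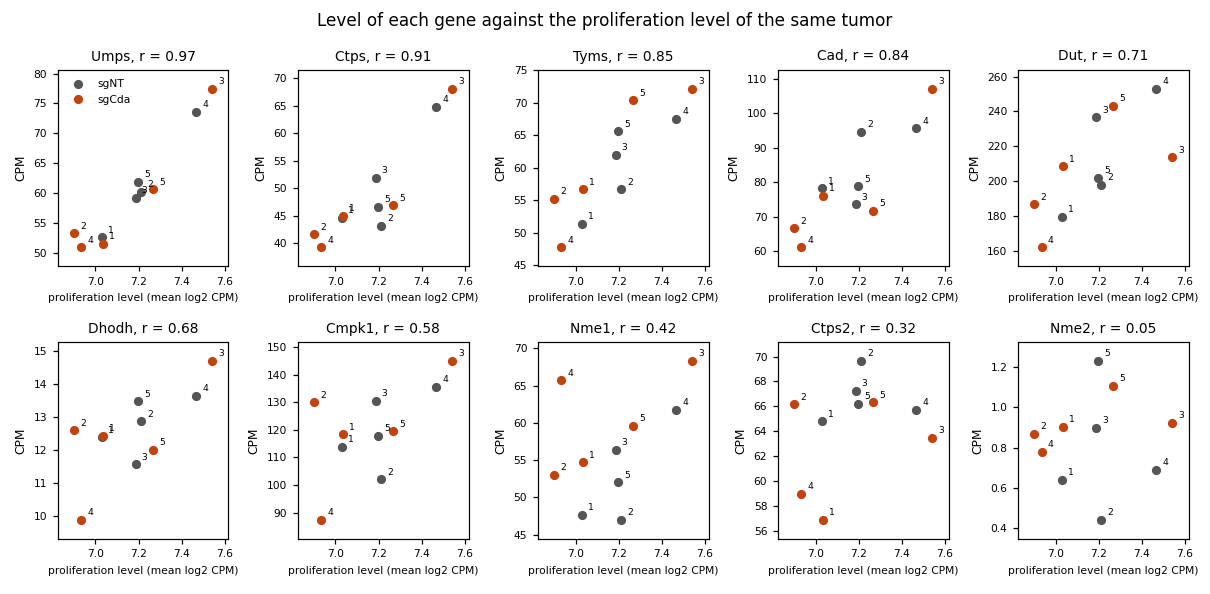
CPM of each gene (y axis) against the proliferation level of the same tumor (x axis, mean log2 CPM of 15 genes), sgNT in grey and sgCda in orange with replicate numbers, in order of Pearson r. The points show CPM, whereas r was computed from the log2 CPM of each gene. Umps and Ctps rise with the level, with sgNT replicate 4 and sgCda replicate 3 at the upper right, whereas Ctps2 (r = 0.32) and Nme2 (r = 0.05) have the lowest r.

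The genes whose log2 CPM was most like that of each member over the 10 tumors are given as a description, ranked among 10235 expressed genes (10236 for Nme2). For Umps they were Eif3b, Mcm2 and Uhrf1 (r = 0.99, 0.99 and 0.98), of which Mcm2 is also in the proliferation list. For Ctps they were Mms22l, Agfg1 and Cd44 (r = 0.99, 0.98 and 0.98), for Cad they were Nup205, Heatr5a and Dnmt1 (r = 0.97, 0.97 and 0.96), and for Tyms they were Tubb5, Cdca5 and Cenpa (each r = 0.97). Dhodh was most like Parp1, Ap2a2 and Scarb1 (r = 0.96, 0.95 and 0.95) and Dut most like Pafah1b2, Trim47 and Trim59 (r = 0.95 each). Cmpk1 was most like Mfsd1, Ciao2a and Mrpl36 (r = 0.99, 0.98 and 0.98), and Ctps2 most like Snap29, Naif1 and Capn1 (r = 0.91, 0.88 and 0.88).

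Nme1 was most like Zc3h15, Dcaf13 and Gnl3 (r = 0.97, 0.97 and 0.96), and Nme2, at its low counts, most like Sf3b6, Pym1 and Rpl17 (r = 0.92, 0.90 and 0.89). No member stood among the first 100 genes of another member. The closest were Cad in the ranking of Dhodh, at place 127 (r = 0.83), and Umps in that of Ctps, at place 158 (r = 0.92).

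Promoters are shown for the 3 genes most closely related to the proliferation level and for Nme1. They are RefSeq sequences (GRCm38.p6) from 250 bases before to 50 bases after a transcript start, and 9 of the 10 genes had at least 1 in the table, Dhodh being the exception. Both strands were searched for 7 motifs: the E-box CACGTG, the GC box GGGCGG, the CCAAT box and the E2F-type sites TTTGGCGC, TTTCCCGC, TTTGGCGG and TTTCGCGC, of which TTTGGCGC and TTTGGCGG share their first 7 letters. The 9 genes had 14 promoters in all. CACGTG was present in 3 of the 14, of Tyms and Nme1, and in 7.15% of all promoters. GGGCGG was present in 7 of the 14, 1 each of Cad, Cmpk1, Ctps, Dut, Nme2, Tyms and Umps, and in 35.7% of all promoters, and CCAAT was present in 1 of the 14, of Ctps2, and in 37.4%. The 4 E2F-type sites matched none of the 14, and they occurred in 0.514%, 1.07%, 0.560% and 0.323% of all promoters. A match is a description of these letters and not a binding site. Capitals mark the matches, and all 4 genes lie on the minus strand, at chr16:33966989-33967288 for Umps, chr4:120570227-120570526 for Ctps, chr5:30073576-30073875 for Tyms and chr11:93968223-93968522 for Nme1.
Umps: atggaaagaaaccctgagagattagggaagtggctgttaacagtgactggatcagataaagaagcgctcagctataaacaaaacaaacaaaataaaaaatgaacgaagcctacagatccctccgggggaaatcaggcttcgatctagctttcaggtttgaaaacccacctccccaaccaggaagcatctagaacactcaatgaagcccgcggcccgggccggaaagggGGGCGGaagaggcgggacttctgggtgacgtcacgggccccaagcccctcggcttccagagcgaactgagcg
Ctps: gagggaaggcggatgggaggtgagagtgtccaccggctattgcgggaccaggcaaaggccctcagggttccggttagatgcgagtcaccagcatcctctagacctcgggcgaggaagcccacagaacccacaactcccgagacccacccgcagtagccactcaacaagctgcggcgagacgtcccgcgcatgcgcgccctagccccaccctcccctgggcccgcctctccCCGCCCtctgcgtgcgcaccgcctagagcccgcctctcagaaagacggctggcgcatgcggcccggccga
Tyms: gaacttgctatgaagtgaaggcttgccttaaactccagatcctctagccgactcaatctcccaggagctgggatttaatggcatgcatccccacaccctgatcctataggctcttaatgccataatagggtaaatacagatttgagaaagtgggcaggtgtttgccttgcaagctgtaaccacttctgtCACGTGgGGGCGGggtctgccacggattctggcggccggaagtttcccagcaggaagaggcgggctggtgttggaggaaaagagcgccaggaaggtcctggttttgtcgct
Nme1: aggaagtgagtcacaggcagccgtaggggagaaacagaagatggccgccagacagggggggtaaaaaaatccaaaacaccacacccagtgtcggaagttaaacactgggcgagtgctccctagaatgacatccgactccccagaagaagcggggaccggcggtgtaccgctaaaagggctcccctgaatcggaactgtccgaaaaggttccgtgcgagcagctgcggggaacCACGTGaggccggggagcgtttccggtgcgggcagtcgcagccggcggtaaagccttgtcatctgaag

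The other genes around the route were taken from lists. None of the 12 salvage genes passed an adjusted or an unadjusted threshold, 5 with positive and 7 with negative estimates (median −0.07). The largest estimate was that of Cmpk2, a mitochondrial nucleotide kinase, at 84.0 ± 26.7 CPM over the sgNT and 66.0 ± 8.78 CPM over the sgCda group (SD, n = 5 per group), with a log2 fold change of −0.35 (SE 0.19, edgeR unadjusted p = 0.0938). Of the other 5 nucleoside diphosphate kinase genes 4 were tested, with Nme5 at −0.22 (SE 0.34), and Nme3 had 0 counts in every tumor. Of 7 breakdown genes 5 were tested, with the largest estimate for Upb1, at 0.17 (SE 0.27) and under 1 CPM, and Dpyd and Dpys did not pass the filter.

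Genes that supply the route or use its products likewise held none past the test. The folate cycle genes, which provide the methyl donor of Tyms, had 5 positive and 5 negative estimates. Among ribonucleotide reductase subunits and Samhd1 the largest estimate was −0.08 for Rrm2b (SE 0.094). Among 5 genes that supply phosphoribosyl pyrophosphate, glutamate and aspartate it was 0.12 for Prps1 (SE 0.081). Among 5 kinase and Myc genes known to act on Cad it was 0.14 for Rps6kb1, the S6 kinase that phosphorylates Cad (SE 0.067, edgeR unadjusted p = 0.0662). Among 11 de novo purine genes it was −0.10 for Impdh2 (SE 0.13), and of the 15 proliferation genes 14 had negative estimates, up to −0.12 for Mcm6 (SE 0.11). The median of these 15 was −0.07, beside 0.0078 for all genes. Their estimates come from the same tumors and are not independent, and the difference in their mean level was within the spread (two-sided exact permutation p = 0.579). No gene of these 9 lists had an unadjusted p under 0.05.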

How the data were processed

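RNA was measured in 5 sgNT and 5 sgCda tumors, grouped by sample title. The authors isolated polyadenylated RNA, aligned reads to mm10 (GRCm38) and counted reads per gene with HTSeq. The deposited values are raw counts, 37417 genes with 1 column per tumor. Strand setting and annotation release are not given in the sources used here. Reads with several alignments are left out by this kind of counting.

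Counts were filtered with filterByExpr (minimum count 10), scaled by TMM and tested with edgeR 4.0.16 (R 4.3.3, quasi-likelihood, all 10 tumors, no covariate), with Benjamini-Hochberg adjustment over 15299 genes. The fit was also run on simulated counts drawn independently for each gene. Such counts lack variation shared by the genes of a tumor, so the run does not bear on that variation. CPM used TMM-scaled library sizes, and log2 CPM a prior count of 2. Relations used permutation tests (100000 resamples, exact below 10 tumors). Gene models and windows of 50 bases came from GENCODE vM21 (GRCm38). The main coding transcript was the protein-coding one with the longest coding sequence, a definition set after transcript lengths were seen. Alternatives were DESeq2 1.42.0, limma-voom (limma 3.58.1), other scalings, no filter, blocks, covariates and leaving out tumors.

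The members, lists and motifs were chosen with earlier results of these data known. Genes were named by rule: all members and Cda, in each list of the pathway's neighbors any gene with an unadjusted p under 0.05 and the largest estimate, the 3 genes most like each member among those whose mean log2 CPM reached 3, and genes sharing sequence with a member. For 1 list the gene so named is not reported here. No source used here ties the tumors to separate cell cultures, so p-values measure only the spread between these samples.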

Additional observations from a re-analysis of the deposited data

How the results depend on the processing

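The count of genes, and of the 10 de novo genes, with an adjusted p under 0.05 stayed at 0 in all 18 alternatives. Without the filter, 830 genes had an unadjusted p under 0.05, and leaving out single tumors gave 280 to 747, the highest without sgCda replicate 3. Among the 10 genes the unadjusted count of 0 became 1 with the proliferation level as a covariate (Nme1, edgeR unadjusted p = 0.0209), without sgCda replicates 3 and 4, chosen after seeing the data (Cad, edgeR unadjusted p = 0.0421), and in 3 of the fits without 1 tumor (range 0 to 1). With the replicate number as a block it was 1 (Nme1, edgeR unadjusted p = 0.0170), but same-numbered tumors did not deviate together (r from −0.43 to 0.34), the numbers are only names, and the block left the adjusted count at 0. Cad, Ctps2, Nme1, Nme2 and Dut kept their direction in every alternative, but without single tumors Cad ran from −0.29 to −0.065, Ctps2 from −0.12 to −0.064, Nme1 from 0.14 to 0.24, Nme2 from 0.076 to 0.45 (0.22 with all tumors) and Dut from −0.15 without sgCda replicate 5 to −0.0037 without sgCda replicate 4. Cmpk1 turned to −6.8e-05 with DESeq2 size factors, −7.3e-05 with the DESeq2 Wald test, −0.014 without the filter, −0.012 with limma-voom, and −0.0088 with the block. Tyms turned to 0.0059 with library totals, 0.054 with the covariate and 0.0012 without sgCda replicates 3 and 4. With the covariate Umps turned to 0.0041 and Ctps to 0.020. Leaving out single tumors gave −0.075 to 0.098 for Cmpk1, −0.077 to 0.071 for Tyms, −0.12 to 0.018 for Dhodh, −0.19 to 0.0027 for Umps and −0.22 to 0.044 for Ctps. Of the 10 relations to the proliferation level, 4 to 6 passed without single tumors, 3 without sgCda replicates 3 and 4, and 0 without sgNT replicate 4 and sgCda replicate 3. As deviations from the group means 5 passed, and with the median of the proliferation list 4 passed. r of Nme2 turned to −0.0042 without the 2 farthest tumors, −0.075 without sgCda replicates 3 and 4 and −0.047 to 0.18 without single tumors, and r of Nme1 to −0.18 without sgNT replicate 4 and sgCda replicate 3, with 0.14 to 0.73 without single tumors. The order per kb kept 6 of 10 places with coding transcript length and 8 to 10 without single tumors. The cause of these changes was not tested. Depth was lowest for Nme2, at 14 to 49 counts per tumor.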
